A study of Mus musculus with 11 samples.

Results

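The liver X receptors, their retinoid X receptor partners and a pair of cofactors were followed in whole mouse heart: Nr1h3 (LXR alpha), Nr1h2 (LXR beta), Rxra, Rxrb, Rxrg, Ncor1 and Ncoa1. These 7 genes were chosen by name, were found through their Ensembl identifiers, and are 7 of the 35584 genes of the deposited count table and of the 33318 genes of the deposited TPM table. All 7 were present in both tables, and all passed the filter on low values (10 normalised counts or more by mean).

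Liver X receptors are nuclear receptors that are activated by oxysterols, oxidised forms of cholesterol, and they bind DNA as heterodimers with a retinoid X receptor. Without a ligand the pair is held by corepressor complexes such as the one built on NCOR1, and with a ligand it recruits coactivators such as NCOA1 (SRC-1), which raises transcription of genes for cholesterol efflux and fatty acid synthesis. The retinoid X receptors also pair with PPARs, thyroid hormone receptors, retinoic acid receptors and NR4A factors, and in macrophages the liver X receptors are known for the response to cholesterol taken up with engulfed cells.

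Whole hearts of SPF-kept male mice, 8 to 12 weeks old, gave 11 polyA RNA libraries in 4 groups. WT mice (n = 3) were injected with diphtheria toxin at 0.01 µg per g of body weight for 3 weeks. The Macrophage-depleted group (n = 3) had the CD169-DTR genotype, in which the toxin receptor follows the CD169 locus, received the same toxin course, and had been without cardiac macrophages for 21 days per the labels. By their genotype labels, Mertk-KO mice (n = 2) lacked Mertk, a receptor for engulfing dying cells, and LXR-DKO mice (n = 3) lacked LXR alpha and beta. Toxin is not stated for Mertk-KO or LXR-DKO mice, so genotype and toxin cannot be told apart there, and the CD169-DTR allele and macrophage loss cannot be told apart in the depleted group. The sources used here do not give the exons that the LXR and Mertk alleles lack. Separate mice for the libraries of a group are not stated, and p-values therefore cover the spread between libraries alone, which may be technical.

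The libraries held 10938600 to 20722295 estimated reads, and no replicate pair was as alike as sampling of reads alone would make it. All 7 cardiomyocyte markers (Myh6, Tnnt2 and others) were detected in every library. Siglec1, which encodes CD169, was at 53.4 to 64.3 normalised counts in WT and at 33.8, 2.12 and 0.719 in the depleted libraries. By this gene Macrophage-depleted 1 stood apart from the other libraries of its group. The summed counts of 14 macrophage markers were 3229, 2614 and 1387 in Macrophage-depleted 1, 2 and 3. The Mertk-KO libraries still held Mertk, at 75.7 and 89.4, below the WT range of 130 to 147 and near the values of other groups (93.3 and 75.4 in Macrophage-depleted 2 and 3, 93.6 to 103 in LXR-DKO), so the level of Mertk did not set these libraries apart. The Mertk-KO libraries differed most from each other (Pearson's r of log values across genes 0.959, against 0.976 to 0.987 within the other groups). Across genes, the deviation of a library from the WT mean also followed transcript length. The WT libraries make up that mean, so their values are not fully comparable with those of the other groups. Spearman's rho lay between -0.023 and 0.023 in WT and at -0.257 and -0.520 in Mertk-KO. It was -0.263, -0.391 and -0.149 in LXR-DKO, and -0.044, 0.230 and 0.055 in Macrophage-depleted. Values of Ncor1 and Ncoa1, which have long transcripts, and of several genes called in Mertk-KO are given with that trend removed as well.

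DNA just before annotated starts of the receptor genes is printed to show what it holds of the hexamer that liver X and retinoid X receptors bind. The hexamer AGGTCA was searched on both strands (TGACCT on the other), as was the same hexamer repeated with 4 bases of any kind between, the element of LXR/RXR heterodimers. The windows are from RefSeq on GRCm38.p6, 250 bases before a gene's annotated start with bases of the gene's own exons removed, written 5′ to 3′ on the gene's strand, and capitals mark a hexamer. Both targeted receptors come first, at chr2:91195152-91195366 (minus strand, 215 bases, inside the span of the GENCODE gene) for Nr1h3 and chr7:44553966-44554215 (minus strand) for Nr1h2, and neither holds a hexamer.
Nr1h3: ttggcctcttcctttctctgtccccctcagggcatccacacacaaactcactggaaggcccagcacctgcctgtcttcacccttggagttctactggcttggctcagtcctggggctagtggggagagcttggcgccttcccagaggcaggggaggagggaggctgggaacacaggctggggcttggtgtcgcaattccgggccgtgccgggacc
Nr1h2: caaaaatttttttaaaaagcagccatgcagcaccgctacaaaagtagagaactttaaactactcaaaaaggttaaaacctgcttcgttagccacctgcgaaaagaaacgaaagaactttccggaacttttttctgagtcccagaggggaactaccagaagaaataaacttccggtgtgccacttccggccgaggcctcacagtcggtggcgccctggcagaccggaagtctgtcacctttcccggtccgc
The windows of Rxra and Rxrg that hold the hexamer are those of their second annotated starts, which lie inside the genes, at chr2:27709042-27709291 (plus strand) and chr1:167618015-167618264 (plus strand).
Rxra, second start: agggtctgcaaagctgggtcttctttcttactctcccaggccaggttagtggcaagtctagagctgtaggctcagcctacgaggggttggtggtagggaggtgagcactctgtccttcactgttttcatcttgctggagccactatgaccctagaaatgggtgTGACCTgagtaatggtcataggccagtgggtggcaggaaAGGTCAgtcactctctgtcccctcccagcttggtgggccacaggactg
Rxrg, second start: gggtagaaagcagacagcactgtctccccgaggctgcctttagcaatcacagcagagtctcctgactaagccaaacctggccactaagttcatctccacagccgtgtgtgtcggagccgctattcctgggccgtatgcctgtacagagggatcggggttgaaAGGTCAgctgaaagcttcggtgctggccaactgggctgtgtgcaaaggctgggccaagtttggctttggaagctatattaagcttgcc
Rxra held the hexamer once on each strand and Rxrg once on the plus strand. The hexamer occurred in 14% of all 32851 RefSeq windows, and the spaced repeat in 0.0152% of them and in no window of the 7 genes. No match was found in the first windows of Rxra, Rxrb, Rxrg, Ncor1 and Ncoa1, which says only that these letters are not there. The windows of Ncor1 (chr11:62438516-62438765, minus strand) and Rxra (chr2:27676951-27677200, plus strand) also lie inside the span of the GENCODE gene. The DNA before the outermost start of these genes and of Nr1h3 was thus not searched.

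In WT heart the corepressor and the gamma RXR isotype had the most RNA per length. The normalised TPM, which is corrected for transcript length, was 51.1 ± 4.06 for Ncor1 (SD, n = 3), 41.0 ± 2.79 for Rxrg, 29.8 ± 3.33 for Nr1h2, 19.4 ± 1.89 for Rxrb, 16.7 ± 0.982 for Rxra, 9.57 ± 0.934 for Nr1h3 and 5.81 ± 0.0565 for Ncoa1. The 3 WT libraries of neighbouring genes in that order did not overlap, and no test between genes was made. LXR beta thus made up 75.6% ± 3.62 of the summed LXR TPM in WT (SD, n = 3). The gamma isotype made up 53.2% ± 1.96 of the summed RXR TPM, beta 25.2% ± 1.14 and alpha 21.7% ± 1.22. By TPM, NCOR1 RNA stood 8.80 ± 0.696 times above NCOA1 RNA in WT, and 8.66 to 8.86 times, by group mean, in the other groups. The mean normalised counts in WT were 2091 for Ncor1 and 525 for Ncoa1. Normalised count per TPM in WT was 38.6 to 44.1 for Ncor1 and 89.9 to 91 for Ncoa1. Their longest coding transcripts are 9037 and 7329 bases. The gap in TPM and the first place of Ncor1 thus depend on how that table treated Ncor1.

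The order was the same in the Macrophage-depleted group. In Mertk-KO, Rxrg came first with 53.4 ± 8.43 TPM (SD, n = 2), overlapping with Ncor1 at 47.5 ± 4.45. In LXR-DKO, Rxrb (19.6 ± 1.47 TPM, SD, n = 3) came next to Nr1h2 (17.6 ± 1.70), with overlapping libraries, but the TPM of the LXR genes in that group did not follow their counts (477 for Rxrb and 92.2 for Nr1h2 by mean). Those of Ncor1 and Rxrg overlapped there too.

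**Figure D1:**
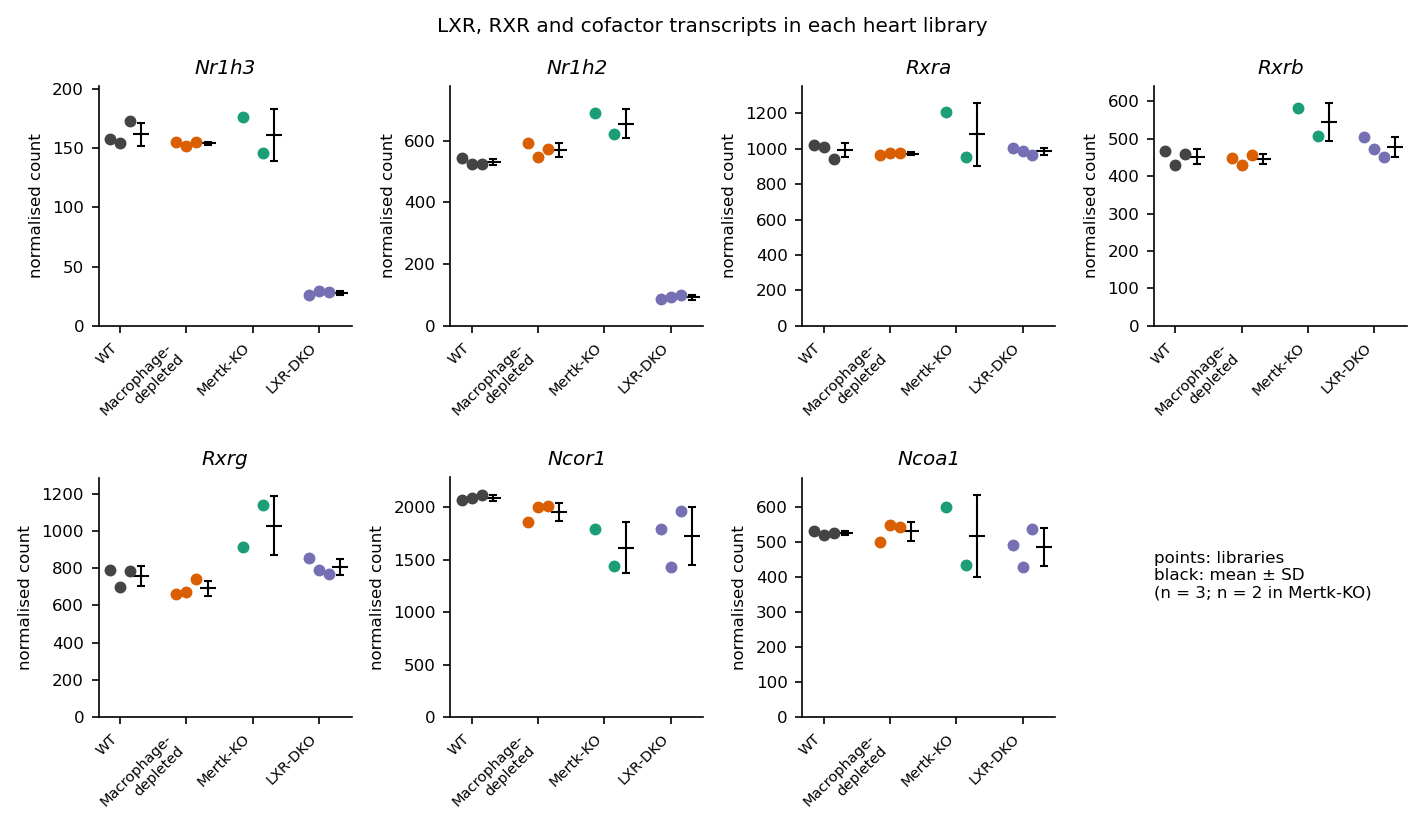
Normalised counts (y axes, from 0) of the 7 genes in each of the 11 libraries by group, with the mean and SD in black (n = 3, or 2 in Mertk-KO). The 3 LXR-DKO libraries lie at 25.9 to 29.0 for Nr1h3 and 85.2 to 99.6 for Nr1h2, far under all other libraries, while the other 5 genes show no such gap.

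The comparison of LXR-DKO with WT checks the targeted receptors and asks whether the partner and cofactor RNAs moved with their loss. Nr1h3 (ENSMUSG00000002108, GRCm38 chromosome 2, 91184061 to 91202834, minus strand) gave 157, 155 and 173 normalised counts in WT hearts but 25.9, 29.0 and 28.3 in LXR-DKO hearts. Nr1h2 (ENSMUSG00000060601, chromosome 7, 44549616 to 44553951, minus strand) gave 543, 525 and 525 in WT and 85.2, 91.7 and 99.6 in LXR-DKO. For both genes the 3 LXR-DKO libraries lay under every other library of the study. On the log2(normalised count + 1) scale Nr1h3 fell by 2.50 (SE 0.12, limma adjusted p 6.01e-07), which left 17.2% of WT. Nr1h2 fell by 2.52 (SE 0.09, adjusted p 3.25e-08), which left 17.4%, and had the smallest p of all genes tested. These were 2 of the 7 genes, while 0.418% of the 13884 tested genes passed the test (Benjamini-Hochberg adjusted p under 0.05) in either direction and 0.202% were lower; being the targets of the knockout, both serve as a check of the labels.

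Neither receptor was at 0. The LXR-DKO libraries still held 24 to 29 estimated reads of Nr1h3 and 76 to 102 of Nr1h2, against a limit of 3 reads for a count of 0. The ratio of Nr1h2 to Nr1h3 normalised counts was 3.32 ± 0.178 in LXR-DKO and 3.30 ± 0.226 in WT (SD, n = 3 each), so the remaining reads kept the proportion between the receptors.

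The TPM table gave a much smaller difference for the same genes. Nr1h3 was at 8.51, 10.3 and 9.94 TPM in WT and at 7.39, 6.04 and 6.19 in LXR-DKO, 68.4% of the WT mean. The groups did not overlap, as was so for 22.1% of all genes in this table, but the difference of -0.49 on the log2(TPM + 1) scale (SE 0.15) did not pass the test (limma adjusted p 0.325). Nr1h2 was at 31.7, 25.9 and 31.8 TPM in WT and at 17.0, 16.2 and 19.5 in LXR-DKO. It fell by 0.73 (SE 0.10, adjusted p 0.0151), to 59% of the WT mean. Of the 12303 genes tested by TPM, 0.333% passed in either direction. The summed TPM of both receptors went from 39.4 ± 2.83 in WT to 24.1 ± 1.73 in LXR-DKO (SD, n = 3 each), while that of the RXRs was 77.1 ± 4.66 and 77.9 ± 3.05, so RXR per LXR RNA was 1.96 ± 0.104 and 3.24 ± 0.259 by TPM. By normalised counts, which are not corrected for length, it was 3.18 ± 0.0641 in WT and 19.0 ± 2.07 in LXR-DKO (SD, n = 3 each).

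The disagreement between the tables was itself larger than the spread between libraries for both receptors. Log2(normalised count + 1) minus log2(TPM + 1) was tested in the same model over the 11622 genes tested in both tables, a comparison added after the values were seen. In LXR-DKO against WT this quantity differed by -2.01 for Nr1h3 (SE 0.14, limma adjusted p 8.36e-04) and by -1.79 for Nr1h2 (SE 0.08, adjusted p 2.55e-05). Of all genes 0.0774% passed this test in either direction, and 0.0344% passed with the count fold more negative, as both receptors did. The other 5 genes ranged from -0.11 to 0.06 and did not pass.

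Per library, normalised count divided by TPM was 15.1 to 18.5 for Nr1h3 in WT and 3.51, 4.79 and 4.57 in LXR-DKO. For Nr1h2 it was 16.5 to 20.2 in WT and 5, 5.65 and 5.11 in LXR-DKO. The ratios in LXR-DKO lay under those of every other library. By the change of this ratio the receptors stood in places 4 and 5 from the lowest of 11597 genes, 95% of which lay above -0.21 on the log2 scale.

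If both tables rest on the same read estimates, which is not known, that ratio is in proportion to the transcript length used for TPM. It was scaled to bases on 817 protein-coding genes with a single transcript. For these it gave 0.726 to 1.1 of the annotated length in the middle 90%. All of them were longer than the lengths implied in LXR-DKO, so this check does not cover those values. On this scale Nr1h3 stood at 1278 to 1566 bases in WT and at 290, 402 and 384 in LXR-DKO. Nr1h2 stood at 1404 to 1716 bases in WT and at 414, 474 and 429 in LXR-DKO. For GRCm38, GENCODE lists 8 transcripts of Nr1h3 of 378 to 1985 bases and 18 of Nr1h2 of 237 to 1999 bases. The sources used here do not give the program behind each table, and the position of reads along the genes was not analysed here, so the part of allele structure, read assignment and program in this disagreement was not tested.

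**Figure D2:**
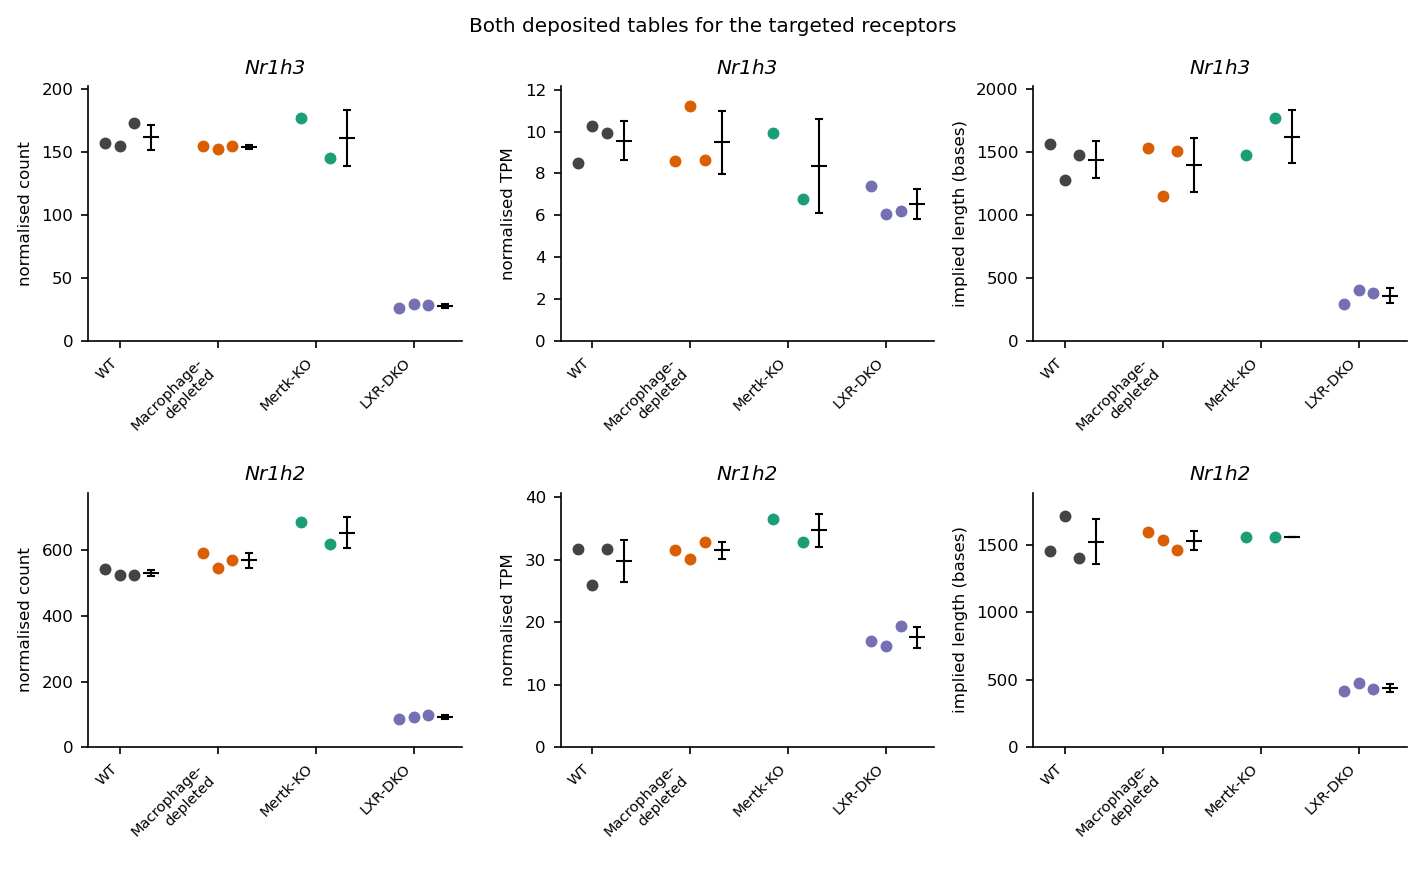
Nr1h3 (top) and Nr1h2 (bottom) in each library: normalised count, normalised TPM, and the length in bases implied by their ratio. That length holds only if both tables rest on the same read estimates. All axes start from 0, with mean and SD in black (n = 3, or 2 in Mertk-KO). In LXR-DKO the counts fall to 17.2% and 17.4% of WT and the TPM to 68.4% and 59%, and the implied length lies at 290 to 474 bases against 1278 to 1716 in WT.

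Genes beside the targeted receptors did not pass the test in LXR-DKO. On chromosome 2, Acp2, a lysosomal acid phosphatase that starts 50 bases from Nr1h3, was at -0.06 (SE 0.10) on the log2 scale and Madd, 223 bases away on the other side, at -0.05 (SE 0.12). Mybpc3, which encodes cardiac myosin-binding protein C, was at 0.09 (SE 0.13) and Ddb2, a DNA damage-binding protein, at 0.31 (SE 0.21). Beside Nr1h2 on chromosome 7, Pold1, the catalytic subunit of DNA polymerase delta, was at 0.02 (SE 0.12), and Spib and Napsa were under the filter on low values. The limma adjusted p of these 5 tested neighbours ranged from 0.600 to 0.965.

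No difference in RXR partner RNA was detected between LXR-DKO and WT, with intervals that reached no further than 0.30 from 0. Rxra (ENSMUSG00000015846, chromosome 2, 27676440 to 27762957) gave 1023, 1010.0 and 944 normalised counts in WT hearts, against 1001, 988 and 965 in LXR-DKO, a log2 difference of -0.01 with a 95% interval of -0.20 to 0.18. Rxrb (ENSMUSG00000039656, chromosome 17, 34031812 to 34038399) gave 468, 429 and 460.1 in WT and 505, 474 and 452 in LXR-DKO, a difference of 0.08 (-0.11 to 0.26). Rxrg (ENSMUSG00000015843, chromosome 1, 167598384 to 167639623), the isotype known from striated muscle, gave 788.5, 698 and 787 in WT and 852, 790.5 and 771 in LXR-DKO, a difference of 0.09 (-0.12 to 0.30). WT and LXR-DKO libraries overlapped for each of the 3, and no adjusted p was under 0.758.

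Of the 5 partners and cofactors among the 7 genes, Ncor1 had the lowest difference in LXR-DKO, without passing the test. This corepressor gene (ENSMUSG00000018501, chromosome 11, 62316426 to 62458541) gave 2067, 2086 and 2119 normalised counts in WT hearts, against 1796, 1428 and 1969 in LXR-DKO. The groups did not overlap, as was so for 22.7% of all tested genes, and the log2 difference was -0.29 (95% interval -0.53 to -0.04, limma adjusted p 0.378). Its longest coding transcript of 9037 bases is longer than those of 96.5% of tested genes, and with each library's length and GC trend removed the difference was -0.15. Ttc19 and Pigl overlap Ncor1 on the other strand, and the sources used here do not give whether strand was used in counting. Ncoa1 (ENSMUSG00000020647, chromosome 12, 4247362 to 4477182) gave 531, 519 and 526 in WT and 491, 427 and 536 in LXR-DKO, a difference of -0.12 (-0.38 to 0.14), which was -0.00 with the trend removed. Its groups overlapped.

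**Figure D3:**
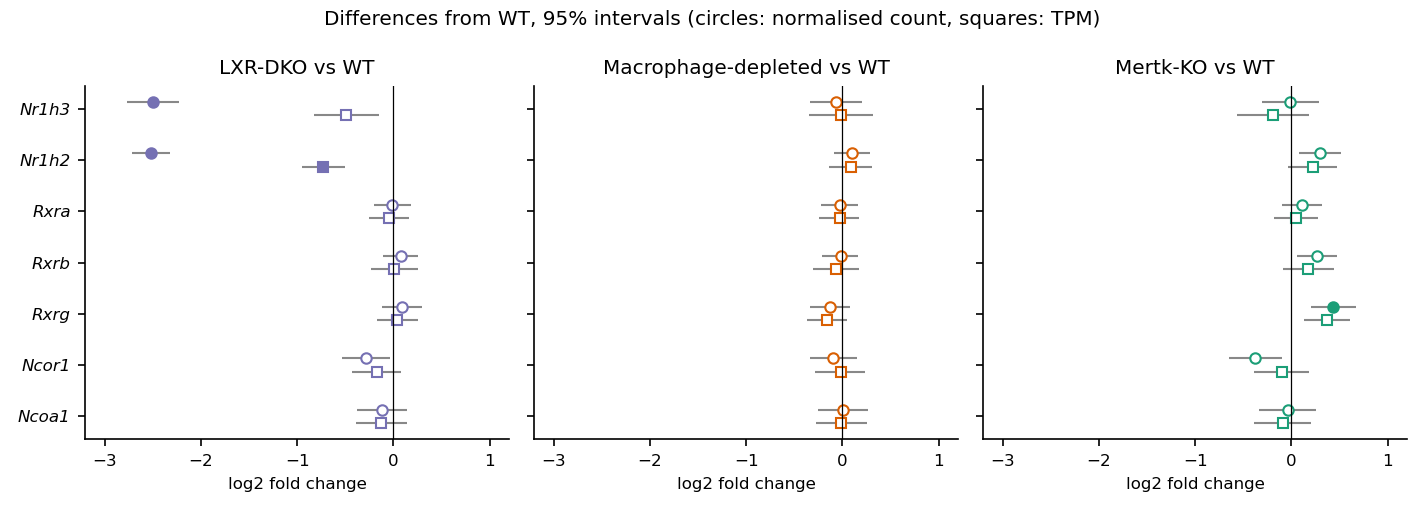
Log2 fold change from WT (x axis) of the 7 genes in the 3 perturbed groups, in the count table (circles) and the TPM table (squares), with 95% intervals from limma and filled symbols where the adjusted p was under 0.05. Both LXR genes stand apart in LXR-DKO, at -2.50 and -2.52 by counts and at -0.49 and -0.73 by TPM, and of the other symbols Rxrg in Mertk-KO (0.43) is the one filled.

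Macrophage-depleted hearts were set against WT to ask whether receptor RNA of the whole heart fell when macrophages, in which liver X receptors are well known, were removed. None of the 7 genes passed the test in either table, by limma, as against 0.238% of all genes by counts (33 of 13884, and 7.53% at an unadjusted p under 0.05) and 0.0325% by TPM. Nr1h3 had 155, 152 and 155 normalised counts after depletion, within 0.07 of WT on the log2 scale (-0.07, 95% interval -0.34 to 0.20). In the same libraries 13 of the 14 macrophage markers lay below every WT library, 2 of them past the test, and Cd68 overlapped with WT (81.7, 102 and 46.8 against 71.2 to 94.3). Of all genes 16.7% had no overlap with WT. The median over the markers was -1.16, and their summed counts were 1387 to 3229 against 4402 to 5092 in WT. In bulk tissue, fewer cells of a type and less RNA per cell cannot be told apart.

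Nr1h2 had 591, 546 and 571 normalised counts after depletion, all above the WT libraries, and its difference of 0.10 (-0.09 to 0.29) did not pass; 16.7% of all genes likewise had no overlap. Rxra (963, 978 and 976), Rxrb (449, 430 and 457) and Ncoa1 (499.7, 547 and 542.5) overlapped with WT, with differences of -0.03, -0.02 and 0.01. Rxrg had 663, 672 and 739.6, a difference of -0.13 (-0.34 to 0.08). Ncor1 had 1860.0, 2002 and 2011, all below WT, at -0.10 (-0.34 to 0.15). With the length and GC trend removed Ncor1 was at -0.13 and Ncoa1 at -0.01. With Macrophage-depleted 1 left out, the library of its group with the most Siglec1, the 7 differences ranged from -0.10 to 0.07 and none passed.

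The comparison of Mertk-KO with WT rests on 2 libraries that differed from each other more than the replicates of any other group did. Rxrg passed the test: its 915 and 1140.0 normalised counts lay above the 788.5, 698 and 787 of WT. The log2 difference was 0.43 (SE 0.11, limma adjusted p 0.0335). It was 1 of the 7 genes to pass, where 9.27% of all genes passed in either direction and 3.38% were higher. The count is thus near the background, and 42.6% of all genes had no overlap with WT. The call was lost under 11 of 24 alternative settings, which included the TPM table (0.37, adjusted p 0.0818, where 3.07% of all genes passed), the removal of the length and GC trend (0.29, adjusted p 0.149), a replicate block (0.45, adjusted p 0.0655), the absence of any 1 WT library (adjusted p 0.0754 to 0.11) and the absence of Mertk-KO 2 (0.27, adjusted p 0.109) or of LXR-DKO 1 (adjusted p 0.0519). Of the 4 atrial markers, none of which passed the test, 3 lay below every WT library in both and Nppa overlapped with WT. Their summed counts were 1675 to 2995 against 3433 to 25590.0. Macrophage markers summed to 5355 to 7465 against 4402 to 5092 in WT, with 12 of 14 above 0 and a median of 0.40, and Acta1, skeletal muscle actin, was at 11670.0 and 6752 against 2104 to 4384. The other 5 skeletal muscle markers were under the filter on low values, and Myh1, Myh2 and Myh4 were at 0 in some libraries. The part of these differences in the Rxrg result was not tested.

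The other receptors and cofactors did not pass in Mertk-KO, where 42.6% of all genes had no overlap with WT. Nr1h2 (688 and 621) and Rxrb (582 and 509) lay above every WT library, at 0.30 (SE 0.10, limma adjusted p 0.0747) and 0.27 (SE 0.09, adjusted p 0.091). Ncor1 (1792 and 1444) lay below every WT library at -0.38 (SE 0.13, adjusted p 0.0766), and was at -0.07 with the length and GC trend removed and at -0.10 in the TPM table. Nr1h3 (177 and 145.5), Rxra (1207 and 955) and Ncoa1 (599 and 433) overlapped with WT, and their differences were -0.01, 0.11 and -0.04. With the trend removed Ncoa1 was at 0.21 (adjusted p 0.244). With Mertk-KO 2 left out, Nr1h2 was at 0.37, Rxra at 0.28, Rxrb at 0.36 and Rxrg at 0.27. With Mertk-KO 1 left out, Ncor1 was at -0.53 and Rxrg at 0.59. Each of these values rests on 1 Mertk-KO library.

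Within the RXR family the gamma share was 51.9% and 62.9% of the summed TPM in the Mertk-KO libraries, 52.0% to 55.4% in WT, 50.7% to 52.0% in Macrophage-depleted and 52.9% to 55.3% in LXR-DKO. The summed RXR TPM was 91.5 and 94.5 in Mertk-KO, above all other libraries (68.6 to 81.8). It was lowest in the depleted group, at 68.6 to 74.6, which overlapped with WT at 72.5 to 81.8.

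**Figure D4:**
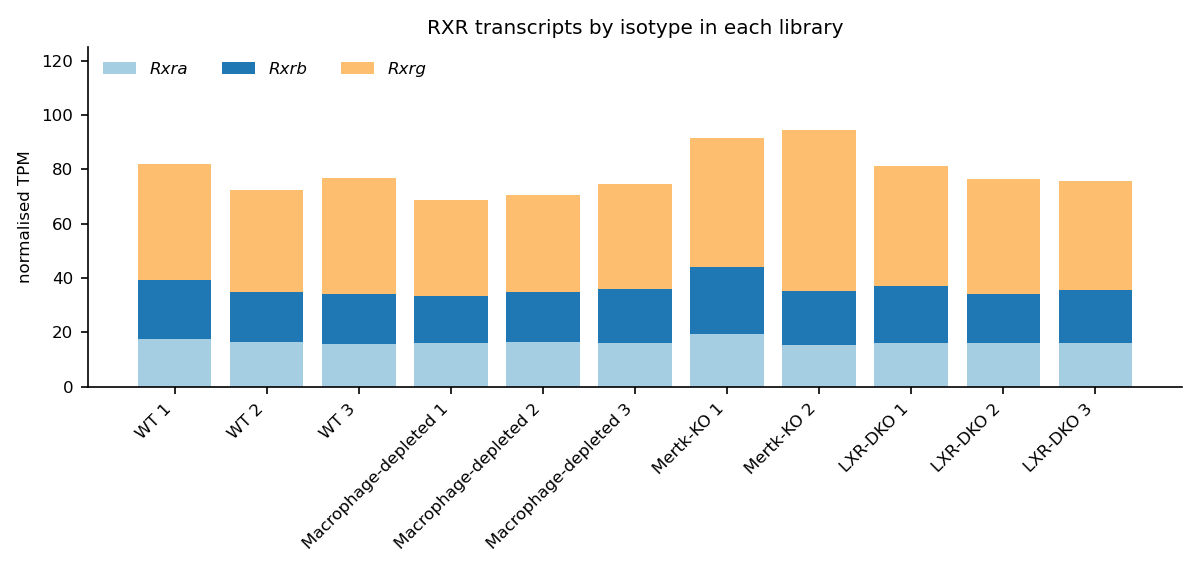
Normalised TPM of Rxra, Rxrb and Rxrg stacked for each of the 11 libraries (y axis from 0). The gamma isotype is the widest band in every library, and the stacks of the Mertk-KO libraries reach 91.5 and 94.5 TPM against 68.6 to 81.8 in the others.

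The perturbed groups were also compared with each other. LXR-DKO lay below Macrophage-depleted in Nr1h3 (-2.43) and Nr1h2 (-2.62), and these 2 of the 7 genes passed where 3.24% of all genes did. Against Mertk-KO the same pair passed, at -2.49 and -2.82, where 2.46% of all genes did. In the TPM table Nr1h2 passed in both comparisons (-0.81 and -0.95), and Nr1h3 did not, at -0.47 (limma adjusted p 0.138) against Macrophage-depleted and at -0.30 (adjusted p 0.407) against Mertk-KO, whose libraries overlapped with LXR-DKO. Between Macrophage-depleted and Mertk-KO, Rxrg (-0.56, SE 0.11, limma adjusted p 0.00722) and Rxrb (-0.29, SE 0.09, adjusted p 0.0495) were lower in the depleted group. These were 2 of the 7 genes where 21.0% of all genes passed, so the count is near the background. The Rxrg call held in 22 of 24 alternative settings and was lost with only these groups in the model (adjusted p 0.0728) and with weights per library (0.0633), and the Rxrb call was lost in 16 of 24.

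Other cofactors were read from lists of 8 corepressor and 11 coactivator genes, all of which were tested. In LXR-DKO against WT none of the 19 passed by limma, with list medians of -0.02 and -0.15 on the log2 scale beside 0.00 for all tested genes. In Macrophage-depleted none passed either, with medians of -0.05 and 0.08. In Mertk-KO 1 corepressor and 4 coactivators fell and none rose, with medians of -0.20 and -0.33 beside -0.01 for all genes, of which 5.89% were lower.

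The corepressor was Nrip1, which encodes RIP140, a repressor of oxidative metabolism genes: its 254 and 307 normalised counts lay below the 453.5 to 548 of WT, and it fell by 0.82 (SE 0.14, limma adjusted p 0.012). With the length and GC trend removed it was at -0.37 (adjusted p 0.102). The coactivators were Ncoa6 (-0.46, adjusted p 0.0246), the acetyltransferase Ep300 (-0.47, 0.0394), the Mediator subunit Med1 (-0.39, 0.0317) and Ppargc1b, a driver of mitochondrial genes (-0.75, 0.0487). All 4 had both Mertk-KO libraries below every WT library. With the length and GC trend removed none of the 5 passed, with Ncoa6 at -0.25, Ep300 at -0.21 and Med1 at -0.06, while Ppargc1b was no smaller at -0.81 (adjusted p 0.0587). Calls were lost in 4 of 24 alternative settings for Nrip1, 9 for Ncoa6 and for Med1, 13 for Ep300 and 19 for Ppargc1b. They included the TPM table for Ncoa6 (-0.17, adjusted p 0.397), Med1 (-0.29, 0.324) and Ppargc1b (-0.59, 0.118), and the absence of WT 3 for all 5 (adjusted p 0.0534 to 0.14). Without Mertk-KO 2, Ppargc1b was at -0.35 (adjusted p 0.226), Ep300 at -0.29 (0.14) and Ncoa6 at -0.34 (0.0555). The absence of WT 1 or of WT 2 ended the calls of the 4 coactivators, that of LXR-DKO 1 those of Ep300, Med1 and Ppargc1b, that of any 1 depleted library those of Ep300 and Ppargc1b, and that of LXR-DKO 2 or 3 that of Ppargc1b.

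Of 14 other partners of the RXRs, 11 were tested, and Nr1h4, Nr1i2 and Nr1i3, receptors of liver and gut, were under the filter. None passed in LXR-DKO (median 0.04) or Macrophage-depleted (median 0.13). In Mertk-KO, Nr4a1, an immediate-early nuclear receptor, was at 1367 and 1398 normalised counts against 197, 85.0 and 809 in WT, 2.53 higher (SE 0.70, limma adjusted p 0.0447). The WT libraries differed widely among themselves, and the call was lost in 16 of 24 alternative settings.

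No listed gene upstream or downstream of the receptors passed the test in LXR-DKO. Of 7 enzymes that make or use oxysterols 2 were tested, Cyp27a1, a sterol hydroxylase, and Hsd3b7, an enzyme of bile acid synthesis. Their differences from WT were 0.08 and -0.03 in LXR-DKO, -0.11 and -0.06 in Macrophage-depleted and 0.14 and -0.15 in Mertk-KO, with none past the test. Of 19 genes listed as LXR targets 14 were tested, and Abcg5, Abcg8, Apoc1, Apoc2 and Cd5l were under the filter. None of the 14 passed in LXR-DKO by limma, with a median of -0.07 and a range of -0.59 to 1.48. Of all tested genes, 11.5% had an unadjusted p under 0.05 there.

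Some targets are given although they did not pass, chosen after their values were seen. Srebf1, which drives fatty acid synthesis genes, gave 517, 455.5 and 516 normalised counts in WT hearts, against 377, 324 and 292.5 in LXR-DKO, with no overlap (-0.59, SE 0.12, limma adjusted p 0.0675). Scd1, a fatty acid desaturase, lay the other way, at 275, 285 and 179.6 in WT and 663, 1419 and 329 in LXR-DKO (1.48, SE 0.39, adjusted p 0.211). The 5 tested adipocyte markers also lay above 0 in LXR-DKO, with a median of 0.59 and none past the test. All 5 overlapped with WT, such as Adipoq, at 25.9, 38.6 and 7.81 against 6.29 to 17.4 in WT. Their part in the Scd1 difference was not tested. Mylip, the ligase that degrades the LDL receptor, was at -0.39 (adjusted p 0.35) and Ptch1 at -0.39 (adjusted p 0.296). Lpcat3 (0.30, adjusted p 0.295), Abcg1 (0.53, adjusted p 0.391) and Pltp (0.15, adjusted p 0.694) lay the other way. Of the 14 tested targets 5 lay above 0 and 9 below. Abca1, the cholesterol exporter most used as an LXR readout, was at 569, 505 and 646.5 in WT and 637, 521 and 698 in LXR-DKO, a difference of 0.11 (adjusted p 0.845).

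In Macrophage-depleted 1 of the 14 targets passed and 13 lay below 0, with a median of -0.16 beside 0.00 for all genes, of which 0.158% were lower. That gene was Apoe, an apolipoprotein abundant in macrophages, at 1746, 1128 and 1437 normalised counts against 2924, 2835 and 2491 in WT. It fell by 0.96 (SE 0.14, limma adjusted p 0.0165). In the same libraries 13 of the 14 macrophage markers lay below every WT library, and so did 4 of the 5 tested adipocyte markers. Of all genes 16.7% had no overlap with WT. The test was passed by 2 of the macrophage and none of the adipocyte markers, whose list sum was 21.6 to 38.4 against 83.9 to 187 in WT. Endothelial markers summed to 9120 to 9747 against 10610.0 to 11480.0, and recruited monocyte markers, which lay the other way, to 216 to 281 against 103 to 144. The part of these cell types in the Apoe result was not tested. The call was lost in 5 of 25 alternative settings, without any 1 WT library (adjusted p 0.0573 to 0.105), without Macrophage-depleted 3 (0.078) and in the TPM table (0.0556). In Mertk-KO 1 of the 14 listed targets passed, where 9.27% of all genes passed and 5.89% were lower, so the count is near the background. It was Ptch1, the hedgehog receptor, which fell by 0.56 (SE 0.14, limma adjusted p 0.0325). This call was lost in 11 of 24 settings, with the length and GC trend removed among them (-0.33, adjusted p 0.134).

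**Figure D5:**
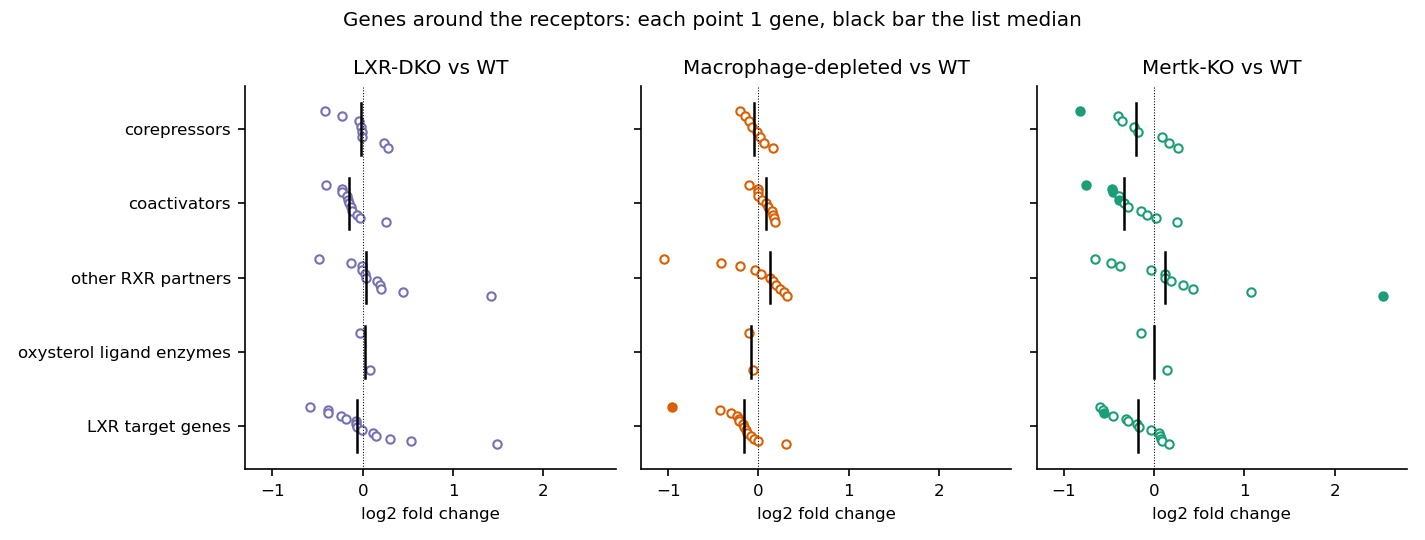
Log2 fold change from WT (x axis) of each tested gene in 5 lists around the receptors, in the 3 perturbed groups, with filled points where the limma adjusted p was under 0.05 and a black bar at the list median. No point is filled in LXR-DKO, 1 is in Macrophage-depleted (Apoe) and 7 are in Mertk-KO.

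The genes most like each receptor in their course over the 11 libraries were ranked by the root mean square difference of centred log2 values among 12599 tested genes. For Nr1h3 these were Rsl1 (0.303), Ndrg4 (0.312) and Mcub (0.39), and for Nr1h2 the same 3 genes, Ndrg4 (0.385), Rsl1 (0.399) and Mcub (0.422). All 3 were low in LXR-DKO as well. Ndrg4 was at 4651 normalised counts by mean in WT and 1041 in LXR-DKO, Rsl1 at 47.0 and 7.98, and Mcub, a subunit of the mitochondrial calcium uniporter, at 24.3 and 6.18. They lie on chromosomes 8, 13 and 3. The nearest gene was at 0.036 for Rxra (Ap3d1), 0.043 for Rxrb (Gnai2), 0.068 for Rxrg (Timm8b), 0.057 for Ncor1 (Esrrg) and 0.037 for Ncoa1 (Fam20b). The SD of the log2 values of these 5 receptors and cofactors over the libraries was itself 0.097 to 0.223, and the likeness is a description of these libraries, with no test.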

How the data were processed

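The members and gene lists were chosen with earlier results of these data known. Trizol-extracted heart RNA was amplified with an Ovation kit for single cells before Illumina library making, per the labels' protocols. Per the submitters' processing notes, CASAVA 1.8.2, cutadapt, RSEM 1.2.20, kallisto 0.43.1 and GRCm38 were used; the sources used here give no role for them. The values of both deposited tables are a signal. The authors deposited the first as normalised counts, with 0.5 read added to every gene on a per-million scale, as read from the values. They deposited the second as normalised TPM, rescaled between libraries.

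The added part was removed and values were put on the scale of the mean effective library size (normalised count). Low values were often not whole reads, so no test on whole counts was run. Amplified reads are not independent molecules, so the limit of 3 reads covers counting error only. No column was left unassigned (0 columns). Genes with a mean of at least 10 (13884) were tested with limma 3.58.1 in R 4.3.3 (lmFit, eBayes with trend) on log2(value + 1), with all 4 groups in 1 model (7 residual degrees of freedom), as a two-sided test with Benjamini-Hochberg adjustment over all tested genes and a threshold of 0.05. TPM needed a mean of at least 1 (12303 genes). The fold scale understates changes of low genes. Members were named in full, list members where they passed against WT, and the nearest genes by position and by likeness by fixed rules; a listed enzyme and a neighbouring gene that these rules name are not reported here. On simulated data the test was checked for recovery of known changes. Alternatives were the TPM table, other pseudocounts, filters, scalings, weights and models, the length and GC trend removed, a replicate block, and each library left out; the per-million scale, the model without Mertk-KO and the difference between tables were added after seeing the data.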

Additional observations from a re-analysis of the deposited data

How the results depend on the processing

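No result reversed. In LXR-DKO against WT, Nr1h3 kept its call in 23 of 24 settings and lost it in the TPM table (-0.49), and Nr1h2 kept it in 25 of 25. Leaving out 1 library each, Nr1h3 ranged from -2.53 to -2.45 and Nr1h2 from -2.57 to -2.46. In the TPM table and on the deposited per-million scale, where Nr1h3 is under the minimum, 1 member passed in LXR-DKO against WT, Macrophage-depleted and Mertk-KO each (2 otherwise). Without 1 library the count of members that passed was 2 against WT and Macrophage-depleted, and 2 to 3 against Mertk-KO.

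In Mertk-KO against WT the count of members (1) was 0 in the TPM table, with no filter, with only the groups compared, with weights per library and with the length and GC trend removed, 2 on the per-million scale, and 0 to 3 without 1 library. In Macrophage-depleted against Mertk-KO the count (2) was 1 in the TPM table, with no filter and with the trend removed, 0 with only the groups compared and with weights, and 1 to 3 without 1 library. Of all genes in Mertk-KO against WT, 9.27% passed in the main model, 3.07% in the TPM table and 2.38% with no filter. There 0.0072% passed with only the groups compared, 0.0864% with weights and 1.67% with the trend removed. In Macrophage-depleted against Mertk-KO the main share was 21.0%. It was 12.8% in the TPM table, 8.4% with no filter and 8.4% with the trend removed. With only the groups compared it was 1.05%, and with weights 3.15%. The cause was not tested. Macrophage-depleted against WT gave 0 members throughout.

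Cofactors and RXR partners that passed in Mertk-KO (6) were 2 in the TPM table, 3 with no filter, 0 with only the groups compared, with weights and with the trend removed, and 1 to 8 without 1 library. In LXR-DKO (0) they were 3 with weights. Of all genes in LXR-DKO against WT, 4.27% passed with weights and 0.893% with only the groups compared. There 0.461% passed with the trend removed and 0.84% without Mertk-KO in the model. With quantile normalisation 7.22% of all genes passed in Mertk-KO against WT. Ligand enzymes and targets in LXR-DKO (0) were 4 with weights, 1 with only the groups compared, with the trend removed and without Mertk-KO in the model, and 0 to 1 without 1 library. In Macrophage-depleted (1) they were 0 in the TPM table and 0 to 1 without 1 library. In Mertk-KO (1) they were 0 in the TPM table, with no filter, with quantile normalisation, with only the groups compared, with weights and with the trend removed, 2 on the per-million scale, and 0 to 3 without 1 library.

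Replicate numbers did not pair the libraries: deviations of same-numbered libraries correlated at -0.094 to 0.107 and those of others at -0.116 to 0.111. With a replicate block all the same, members that passed in Mertk-KO against WT numbered 0 and in Macrophage-depleted against Mertk-KO 1. Cofactors and partners that passed in Mertk-KO numbered 1, and ligand enzymes and targets 1 in LXR-DKO and 0 in Mertk-KO. With that block 2.82% of all genes passed in Mertk-KO against WT. The share was 14.7% in Macrophage-depleted against Mertk-KO and 0.382% in LXR-DKO against WT. Leaving Mertk-KO with 1 library assumes that it varies like the other groups. Depth limits Nr1h3 most, at 24 to 29 reads in LXR-DKO.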
